A study of Mus musculus with 13 samples.

Results

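The TGF-beta receptor, carrier and SMAD genes of mouse splenic B cells are described here across 2 genotypes, with and without stimulation of the B cell receptor. The 10 genes, of 23337 symbols in the count tables, were Tgfb1, Lrrc32, Eng, Tgfbr1, Tgfbr2, Smad2, Smad3, Smad4, Smad7 and Skil, and all 10 were found and passed the filter on low counts. The set was chosen by pathway membership with results of these libraries known: the lower Eng level in unstimulated deficient cells and the lower Tgfb1 level in stimulated deficient cells led to it. The genotype differences of Eng and Tgfb1 are therefore given as descriptions, without a test, and nothing is read from them. Their calls enter only statements over all 10 genes in the section on processing.

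The study asked what loss of Regnase-1 (gene Zc3h12a), an endoribonuclease that degrades messenger RNAs, does to the transcriptome of B cells at rest and after receptor engagement. Control cells were Regnase-1+/+ hCD20TamCre and deficient cells Regnase-1f/f hCD20TamCre, so both genotypes carried the Cre transgene, whose name denotes a tamoxifen-activated recombinase under the human CD20 promoter. Naive, untreated cells gave 4 control and 3 deficient libraries, and cells given anti-IgM F(ab')2 for 4 hours gave 3 libraries of each genotype. B cells were taken by negative selection with CD43 beads; CD43 is a surface marker of B-1 and plasma cells that T cells, neutrophils and monocytes also carry. The age and sex of the mice, any tamoxifen schedule and the handling of untreated cells during the stimulation are not stated in the labels.

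TGF-beta is secreted in a latent form and is released from carrier proteins before it binds its receptors. The ligand assembles the type II receptor with the type I receptor kinase, which phosphorylates SMAD2 and SMAD3; these enter the nucleus with SMAD4, while SMAD7 blocks the receptor and SKIL restrains SMAD-driven transcription. In B cells the pathway is known for restraining proliferation and for directing class switching to IgA.

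The windows upstream of 4 of the genes are shown first: Eng and Smad3 because they moved in opposite directions after anti-IgM, and Tgfb1 and Tgfbr2 because their levels tracked each other across libraries. The windows are the 250 bases before the annotated start, read on the gene's strand from RefSeq (build GRCm38.p6); 5 of the 10 genes matched this table, the fifth being Tgfbr1. Capitals mark matches, on either strand, to 8 motifs: the AP-1 site TGANTCA, the cAMP response element TGACGTCA, the SMAD box CAGAC, the SMAD palindrome GTCTAGAC, the Sp1 and KLF box GGGCGG, the EGR site GCGNGGGCG, the octamer ATGCAAAT and the NF-kB site by name.
Eng (chr2:32646345-32646594, plus strand): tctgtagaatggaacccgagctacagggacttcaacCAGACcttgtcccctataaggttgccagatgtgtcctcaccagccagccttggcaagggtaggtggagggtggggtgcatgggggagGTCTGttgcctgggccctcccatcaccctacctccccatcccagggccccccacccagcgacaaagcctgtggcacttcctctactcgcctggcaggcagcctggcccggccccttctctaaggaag
Smad3 (chr9:63757995-63758244, minus strand): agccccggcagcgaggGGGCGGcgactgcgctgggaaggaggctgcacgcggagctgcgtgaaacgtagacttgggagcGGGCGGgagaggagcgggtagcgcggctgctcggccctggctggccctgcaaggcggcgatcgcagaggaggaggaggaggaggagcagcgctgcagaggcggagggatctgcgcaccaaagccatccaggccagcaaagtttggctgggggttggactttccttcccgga
Tgfb1 (chr7:25686752-25687001, plus strand): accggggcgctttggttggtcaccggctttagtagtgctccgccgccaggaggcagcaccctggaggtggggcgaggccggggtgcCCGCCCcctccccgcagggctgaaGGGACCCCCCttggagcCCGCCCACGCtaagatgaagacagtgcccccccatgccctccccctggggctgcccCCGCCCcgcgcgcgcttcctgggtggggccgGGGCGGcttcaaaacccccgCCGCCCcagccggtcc
Tgfbr2 (chr9:116175364-116175613, minus strand): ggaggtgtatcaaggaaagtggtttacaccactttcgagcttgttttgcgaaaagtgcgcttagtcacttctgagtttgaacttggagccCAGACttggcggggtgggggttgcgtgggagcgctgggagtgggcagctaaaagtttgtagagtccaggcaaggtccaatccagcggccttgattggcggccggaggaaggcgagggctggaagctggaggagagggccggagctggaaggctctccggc

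The Eng window held 2 SMAD boxes, 214 and 127 bases before the start, and the Tgfbr2 window held 1, 160 bases before it. Of 32841 such windows, 42.2% held a SMAD box. The Smad3 window held 2 Sp1 and KLF boxes, which 32.7% of windows held. The Tgfb1 window held 5 Sp1 and KLF boxes, an EGR site 122 bases before the start (4.70% of windows; it overlapped an Sp1 and KLF box by 5 bases) and an NF-kB match 140 bases before it (7.25% of windows). GC content was 62.4% for Eng, 69.2% for Smad3, 75.2% for Tgfb1 and 58.4% for Tgfbr2, beside a median of 52.4% over all windows. No AP-1 site (6.75% of windows), cAMP response element (1.55%), octamer (1.60%) or SMAD palindrome (0.167%) matched in these 4 windows. These matches describe the letters of the windows and were not tested as binding sites.

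Libraries held 21407724 to 33244755 reads in genes. Levels below are CPM, the read count relative to a library size scaled by the trimmed mean of M-values (TMM); before that scaling 3 reads corresponded to 0.0902 to 0.140 CPM. Differences are fitted log2 differences with their standard error (SE), called at an adjusted p under 0.05 over all 13574 genes tested. Zc3h12a stood at 121 to 131 CPM in unstimulated control libraries, 89.2 to 111 in unstimulated deficient, 147 to 157 in stimulated control and 92.6 to 113 in stimulated deficient libraries. The lower level in deficient cells was not called in unstimulated cells (-0.32 ± 0.07, adjusted p = 0.106, edgeR). It was called in stimulated cells (-0.58 ± 0.08, adjusted p = 0.000784, edgeR). Counts cover the whole gene and do not separate floxed exons from others, and the source of the remaining reads was not tested. From Xist and Y-linked reads, 1 of 4 control and 2 of 3 deficient animals read as male, and 3 control and 1 deficient animal as female. On the second principal component (11.7% of the variance) the 6 male libraries lay between 12.2 and 30.7 and the 7 female libraries at 6.40 or below. Summed B cell markers (9 genes) stood at 6121 to 6862 CPM in unstimulated control and 5897 to 6944 in unstimulated deficient libraries. After anti-IgM the sums were 3186 to 3355 and 3164 to 3488 CPM. In bulk libraries a lower level can reflect fewer cells of a type or less RNA per cell, and these cannot be told apart.

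Per kilobase of exon, Tgfb1 was the most abundant of the 10 transcripts in unstimulated control cells, at 151.5 ± 6.11 CPM per kilobase (SD, n = 4). Tgfbr2 followed at 80.6 ± 4.63 and Skil at 38.5 ± 1.31 CPM per kilobase. Smad4 (29.7 ± 1.28), Smad3 (29.3 ± 2.59) and Smad7 (26.9 ± 1.95) came next, and these neighbours lay within their spread of each other. Tgfbr1 stood at 17.3 ± 0.853, Eng at 10.6 ± 0.882 and Smad2 at 9.95 ± 0.570 CPM per kilobase, the last pair again within their spread. Lrrc32 was lowest, at 1.91 ± 0.516 CPM per kilobase. In stimulated control cells Smad3 had moved to the second rank, at 122.5 ± 9.01 CPM per kilobase (SD, n = 3) behind Tgfb1 at 156.8 ± 5.13. Eng then had the lowest level, 1.12 ± 0.253 CPM per kilobase, and Lrrc32 stood at 34.5 ± 2.03.

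**Figure D1:**
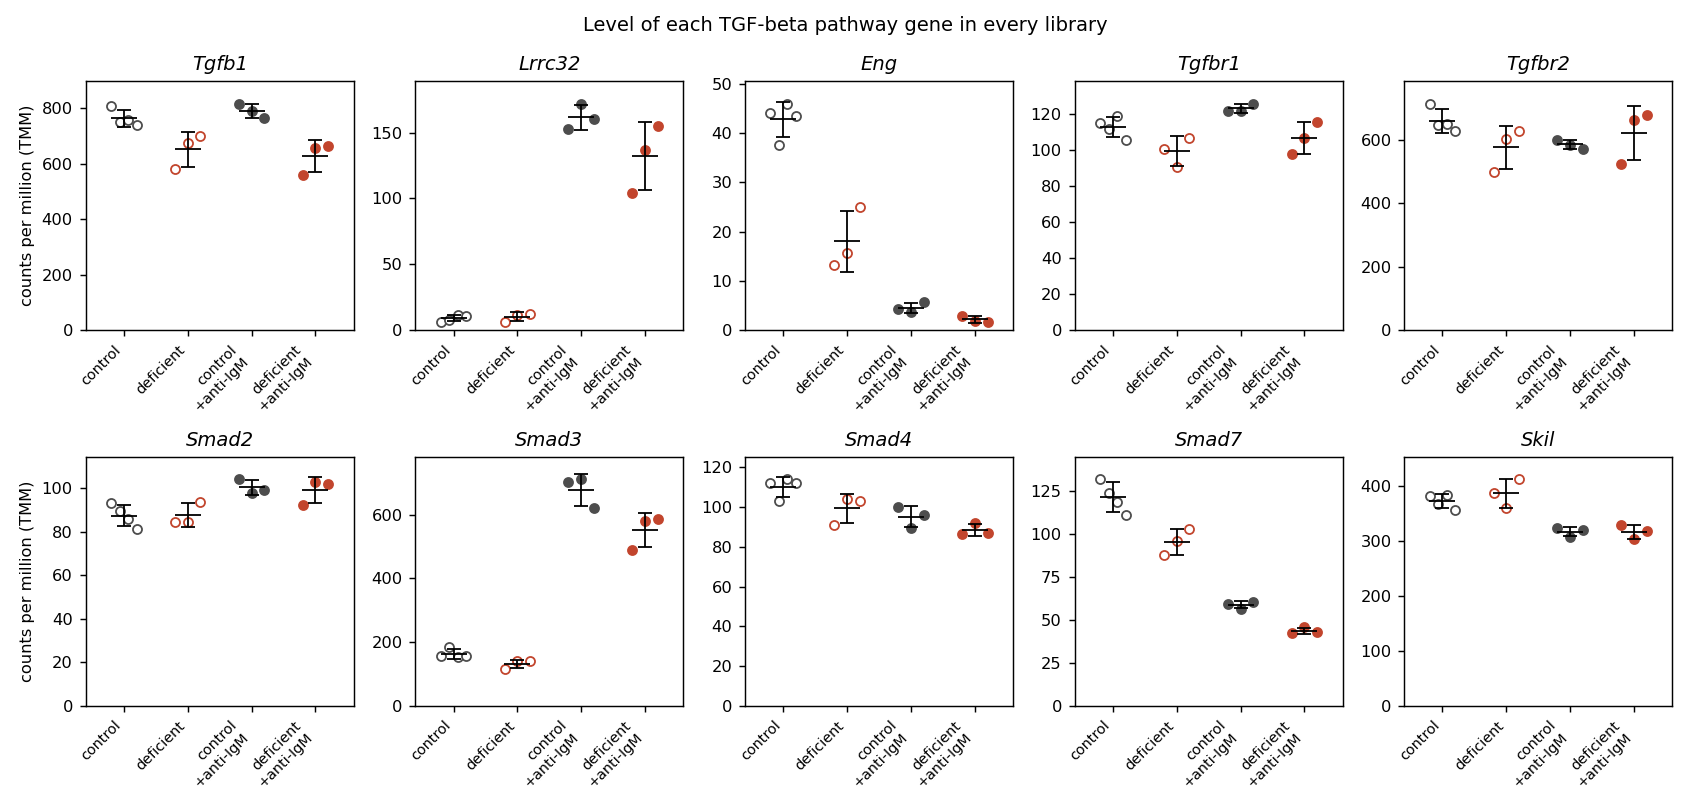
Level of each of the 10 genes in CPM (vertical axes, from 0) in every library (points) of the 4 groups, with the group mean and SD (black bars); open points are unstimulated, filled points anti-IgM, grey control and red deficient. Lrrc32 and Smad3 are high and Eng and Smad7 low in all 6 stimulated libraries, and Smad7 is lower in deficient than in control libraries in both states.

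Anti-IgM raised the carrier gene Lrrc32 and the receptor-regulated SMAD gene Smad3, and lowered the coreceptor gene Eng and the inhibitor gene Smad7, in both genotypes. Changes in Smad2, Smad4 and Skil were also called but were small, and those of the ligand gene Tgfb1 and the receptor genes Tgfbr1 and Tgfbr2 were not called. In control cells 3 of the 10 genes were called higher, beside 28.5% of all genes tested, and 4 lower, beside 31.8%. In deficient cells the same split of 3 higher and 4 lower stood beside 28.3% and 29.6%. The median difference of the 10 genes was -0.06 in control and 0.03 in deficient cells, and that of all genes tested -0.13 and -0.11.

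Tgfb1 (chromosome 7, 25687002 to 25705077, 8 exon blocks) encodes the ligand. Its level in unstimulated control libraries was 809, 751, 757 and 739 CPM, and in stimulated control libraries 817, 790 and 765 CPM. In deficient libraries it was 582, 674 and 701 CPM without and 561, 656 and 664 CPM with anti-IgM. Stimulated and unstimulated libraries overlapped within each genotype, and the responses were 0.05 ± 0.07 in control (adjusted p = 0.578, edgeR quasi-likelihood test) and -0.06 ± 0.08 in deficient cells (adjusted p = 0.565).

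Lrrc32 (chromosome 7, 98489283 to 98502181) encodes GARP, a membrane protein that holds latent TGF-beta on the cell surface. Its level in unstimulated cells was 6.30, 7.52, 11.3 and 10.7 CPM in the controls, and 6.23, 11.6 and 12.4 CPM in deficient animals. With anti-IgM the controls reached 153, 172 and 160 CPM, and the deficient animals 104, 137 and 155 CPM. All 6 stimulated libraries lay above all 7 unstimulated ones. The fitted rise was 18.0-fold in control (4.17 ± 0.27 log2, adjusted p = 1.8e-07, edgeR) and 13.2-fold in deficient cells (3.72 ± 0.30, adjusted p = 1.2e-06). Within single animals the rise was 24.3-, 22.8- and 14.2-fold in control and 16.6-, 11.8- and 12.5-fold in deficient cells. Lrrc32 is known for its display on regulatory T cells, so the marker list of those cells (6 genes) is given beside it. The defining marker Foxp3 stayed between 0.312 and 1.95 CPM in all 13 libraries. In library order it was 0.332, 0.312, 1.37 and 1.73 CPM in unstimulated control and 0.803, 0.813 and 0.906 CPM in unstimulated deficient libraries. The summed list stood at 44.2 to 75.4 CPM in unstimulated and 430.2 to 540 CPM in stimulated libraries. Of that sum Il2ra, the interleukin-2 receptor alpha chain, made up 36.5 to 65.1 CPM and then 415 to 529 CPM. Within groups the sum moved with Lrrc32 (Pearson r = 0.91 of deviations from group means over 13 libraries, which share depth and scaling). Summed T cell markers (7 matched genes) stood at 114 to 161 CPM in unstimulated and 90.4 to 133 CPM in stimulated libraries. Most of that sum was Cd2 and Lck, which moved in opposite directions. Cd2 stood at 75.9 to 113 CPM unstimulated and 26.3 to 42.0 CPM stimulated, and Lck at 20.6 to 31.4 and then 53.5 to 83.9 CPM. Among unstimulated control libraries Cd3e ranged from 0.516 to 6.74 CPM and Cd4 from 1.33 to 11.5 CPM, a spread that the sum does not show. The part of T cells in the Lrrc32 levels was not tested.

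Eng (chromosome 2, 32646595 to 32682669) encodes endoglin, a coreceptor for TGF-beta family ligands best known on endothelial cells. Unstimulated control libraries held 44.1, 37.7, 46.0 and 43.4 CPM, and stimulated control libraries 4.32, 3.65 and 5.67 CPM. Deficient libraries held 13.3, 15.7 and 25.0 CPM without and 2.93, 1.89 and 1.71 CPM with anti-IgM. The stimulated libraries lay below the unstimulated ones without overlap in both genotypes; the lowest held 41 Eng reads. The fitted fall was 9.41-fold in control (-3.23 ± 0.25 log2, adjusted p = 1.2e-07, edgeR) and 8.30-fold in deficient cells (-3.05 ± 0.27, adjusted p = 5.1e-07). Single deficient animals spread widely, with falls of 4.55-, 8.33- and 14.6-fold, while the control animals fell 10.2-, 10.3- and 8.12-fold.

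Of the defining endothelial markers, Cldn5 had at most 2 and Emcn at most 3 reads in a library, and Tek and Tie1 stayed at or under 0.316 CPM. Others were above 0: Cdh5 stood at 1.35 to 2.76 CPM over all libraries, and in stimulated deficient libraries, where Eng was 1.71 to 2.93 CPM, Kdr stood at 1.58 to 6.85 and Vwf at 1.04 to 3.11 CPM (none of these per length). The summed list (10 genes) was 209 to 226 CPM in unstimulated control and 236 to 297 CPM in unstimulated deficient libraries, higher in the genotype with less Eng. Within groups it moved with Eng (Pearson r = 0.82 of deviations from group means over 13 libraries, which share depth and scaling). After anti-IgM the sum was 37.4 to 53.9 CPM in control and 58.3 to 70.9 CPM in deficient libraries. Nearly all of it was Pecam1, at 202 to 289 CPM unstimulated and 30.4 to 57.1 CPM stimulated, a gene that B cells also express. Megakaryocyte and platelet markers (8 genes) summed to 141 to 167 CPM in unstimulated control and 96.0 to 120 CPM in unstimulated deficient libraries. After anti-IgM they summed to 31.6 to 45.8 CPM in control and 23.7 to 34.0 CPM in deficient libraries. Their sum also moved with Eng within groups (r = 0.92). Itgb3, the integrin beta-3 chain, carried most of that sum, while the platelet genes Pf4 and Ppbp stayed at or under 2.44 CPM. Between genotypes Itgb3 differed by -0.65 in unstimulated and -0.66 in stimulated cells. Of the 7 markers of this list that were tested, 5 were higher in deficient cells in each state. Their median differences were 0.23 and 0.44, and no marker of the list was called. The red pulp macrophage and monocyte list (12 genes) spanned 235 to 506 CPM in unstimulated control and 160 to 533 CPM in unstimulated deficient libraries, with r = 0.11 to Eng within groups. The part of these cell types in the Eng levels was not tested. Eng shares 61 exon bases with Fpgs on the opposite strand, which stood at 104 to 141 CPM in unstimulated control and 70.8 to 97.1 CPM in unstimulated deficient libraries. Whether reads were counted by strand is not stated in these sources.

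Tgfbr1 (chromosome 4, 47353222 to 47414931) encodes the type I receptor kinase. It stood at 115, 112, 119 and 106 CPM in unstimulated and 122, 122 and 126 CPM in stimulated control libraries, a small shift without overlap that was not called (0.12 ± 0.07, adjusted p = 0.126, edgeR). Deficient libraries held 101, 90.8 and 107 CPM and then 98.0, 107 and 116 CPM, which overlapped (0.11 ± 0.07, adjusted p = 0.228).

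Tgfbr2 (chromosome 9, 116084293 to 116175360) encodes the type II receptor, and its small responses ran in opposite directions in the 2 genotypes. Control libraries went from 715, 647, 650 and 628 CPM to 601, 585 and 573 CPM, and deficient libraries from 499, 602 and 630 CPM to 526, 663 and 680 CPM. All 3 paired control animals fell, by 0.25, 0.15 and 0.18 on the log2 scale, and all 3 deficient animals were higher after anti-IgM, with log2 responses of 0.08, 0.14 and 0.11. Tgfb1 also split the animals by sign, and the share of all genes that did so was not counted. Neither response was called in the fit of group means (-0.17 ± 0.09, adjusted p = 0.118, in control and 0.11 ± 0.10, adjusted p = 0.344, in deficient cells, edgeR). With the animal as a block both were called, at -0.19 ± 0.04 (adjusted p = 0.000699) and 0.11 ± 0.04 (adjusted p = 0.0338). In that blocked fit 8 of the 10 genes were called in each genotype, beside 65.2% of all genes in control and 65.6% in deficient cells. Over all alternatives run the sign held, and the size ranged from -0.24 to -0.09 in control and from 0.02 to 0.26 in deficient cells.

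Smad3 (chromosome 9, 63646767 to 63757994) and Smad2 (chromosome 18, 76241580 to 76310963) encode the SMADs that the type I receptor phosphorylates. Smad3 rose from 155, 184, 154 and 157 CPM to 704, 711 and 621 CPM in control cells. In deficient cells it rose from 115, 139 and 139 CPM to 490, 579 and 585 CPM. Stimulated and unstimulated libraries were far apart, with fitted rises of 4.18-fold in control (2.06 ± 0.09, adjusted p = 2.2e-11, edgeR) and 4.21-fold in deficient cells (2.07 ± 0.10, adjusted p = 8.3e-11). The 6 animals ranged from 3.87- to 4.55-fold. Smad2 went from 93.1, 89.3, 85.7 and 81.4 CPM to 104, 97.9 and 99.0 CPM in control cells (0.20 ± 0.06, adjusted p = 0.0119). Deficient cells held 84.2, 84.3 and 93.8 CPM without and 92.2, 103 and 102 CPM with anti-IgM, which overlapped (0.18 ± 0.07, adjusted p = 0.0308); scaling by upper quartiles ended that call (0.09, adjusted p = 0.184).

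Smad4 (chromosome 18, 73639009 to 73703780) encodes the common partner of the receptor-regulated SMADs. Its level was 112, 103, 114 and 112 CPM in unstimulated and 100, 89.4 and 96.2 CPM in stimulated control libraries (-0.21 ± 0.06, adjusted p = 0.00712, edgeR). The deficient libraries held 91.1, 104 and 103 CPM and then 86.7, 91.8 and 87.0 CPM (-0.17 ± 0.07, adjusted p = 0.0408). With DESeq2's size factors neither call held (adjusted p = 0.0597 in control and 0.112 in deficient cells).

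The inhibitor genes both fell. Smad7 (chromosome 18, 75367529 to 75395935) went from 132, 124, 119 and 111 CPM to 59.4, 56.7 and 60.6 CPM in control cells. In deficient cells it went from 87.8, 96.0 and 103 CPM to 42.5, 45.7 and 43.1 CPM. No stimulated library reached the lowest unstimulated one, and the fitted falls were 2.06-fold (-1.05 ± 0.07, adjusted p = 2.1e-09, edgeR) and 2.18-fold (-1.12 ± 0.07, adjusted p = 2.3e-09). Skil (chromosome 3, 31095058 to 31122577) moved less, from 383, 368, 385 and 358 CPM to 324, 308 and 320 CPM in control cells (-0.24 ± 0.06, adjusted p = 0.00178). In deficient cells its level was 388, 361 and 413 CPM without and 329, 304 and 318 CPM with anti-IgM (-0.29 ± 0.06, adjusted p = 0.000555), again without overlap.

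**Figure D2:**
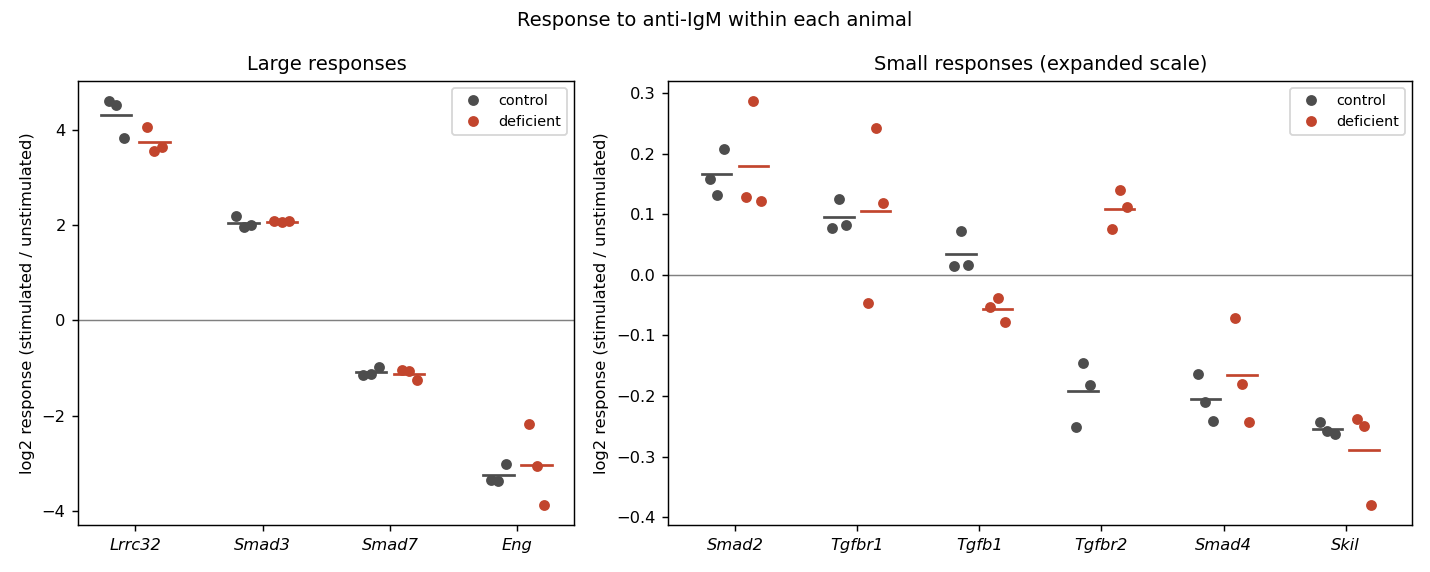
Log2 response to anti-IgM (vertical axis, stimulated over unstimulated CPM) in each of the 3 control (grey) and 3 deficient (red) animals with both libraries, with horizontal bars at the means; the right panel has an expanded scale. Tgfbr2 lies below 0 in all 3 control animals and above 0 in all 3 deficient animals, while the Smad3 and Smad7 responses of the genotypes lie close together.

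Between genotypes, the response to anti-IgM was not called different for any of the 10 genes in the fit of group means, where 0.00737% of all genes (1 gene) were called (all 10 adjusted p = 0.9997, edgeR). At an unadjusted p under 0.05 the count was 1, Tgfbr2, and DESeq2 and limma also called 0. The share of all genes at that unadjusted threshold was not counted. The difference for Tgfbr2, deficient minus control, was 0.28 ± 0.13. With the animal as a block it was 0.30 ± 0.06 (adjusted p = 0.03) and Tgfbr2 was the 1 gene of the 10 called, beside 0.501% of all genes. For Smad3 the difference was 0.01 with a 95% interval of -0.27 to 0.29, for Smad7 -0.08 (-0.29 to 0.13) and for Skil -0.06 (-0.23 to 0.12). The intervals of Lrrc32 (-0.45, -1.28 to 0.39) and Eng (0.18, -0.58 to 0.94) were wide. All these intervals come from the fit of group means, which leaves out the pairing of states by animal. With the animal as a block the differences were -0.55 ± 0.24 for Lrrc32 and 0.22 ± 0.34 for Eng. In that fit Smad3 stood at 0.02 ± 0.07, Smad7 at -0.04 ± 0.08 and Skil at -0.03 ± 0.06, and none of these was called.

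Smad7 was the member outside the selection that was lower in deficient cells by the test in both states. Counts here cover the other 8 genes, since Eng and Tgfb1 are the genes the set was chosen by. In unstimulated cells 1 of the 8, Smad7, was called lower, beside 0.199% of all genes, and none higher. In stimulated cells again 1, Smad7, was called lower, beside 1.26%, and none higher. Every deficient library was lower than every control library for 2 of the 8 without anti-IgM (Smad3 and Smad7), beside 5.58% of all genes. With anti-IgM this held for 3 (the same pair and Tgfbr1), beside 10%. The median genotype difference of the 8 genes was -0.17 unstimulated and -0.15 stimulated, and that of all genes -0.02 and 0.00. Unstimulated libraries of 1 genotype and the stimulated libraries of that genotype share animals, so the 2 states do not count as independent.

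The Smad7 values quoted above gave group means of 122 ± 8.82 CPM (SD, n = 4) in control and 95.5 ± 7.47 CPM (n = 3) in deficient unstimulated cells. The difference was -0.35 ± 0.07 (1.27-fold, adjusted p = 0.04, edgeR). The unstimulated call held in 3 of the 13 fits that each left out 1 library, with adjusted p from 0.0127 to 0.163. In stimulated cells the means were 58.9 ± 2.00 and 43.8 ± 1.71 CPM (n = 3 each). The difference was -0.43 ± 0.07 (1.35-fold, adjusted p = 0.00522, edgeR), and the call held in all 13 such fits. Fits that left out a library of the other state kept all libraries compared, so the 13 are not separate checks. Within the male animals Smad7 was 132 CPM for the control animal, against 96.0 and 103 CPM for the deficient pair, and within the females 124, 119 and 111 against 87.8 CPM. With anti-IgM the male values were 59.4 against 45.7 and 43.1 CPM and the female values 56.7 and 60.6 against 42.5 CPM. Summed B cell markers, which overlapped between genotypes, varied with Smad7 within groups (Pearson r = 0.80 of deviations from group means over 13 libraries, which share depth and scaling), and neutrophil markers opposed it (r = -0.74), as did macrophage and monocyte markers (r = -0.66). Neutrophil markers (7 matched genes) summed to 15.2 to 237 CPM in unstimulated control and 24.6 to 112 CPM in unstimulated deficient libraries, and their part in the Smad7 difference was not tested.

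Smad3 was lower in deficient cells without overlap in both states, yet neither difference was called (-0.31 ± 0.09, adjusted p = 0.256, unstimulated and -0.30 ± 0.09, adjusted p = 0.155, stimulated, edgeR). Stimulated Tgfbr1 also did not overlap and was not called (-0.20 ± 0.07, adjusted p = 0.237). Tgfbr2 differed by -0.19 ± 0.09 in unstimulated (adjusted p = 0.576) and 0.09 ± 0.10 in stimulated cells (adjusted p = 0.812). Smad4 differed by -0.15 ± 0.06 and -0.11 ± 0.07 (adjusted p = 0.485 and 0.595). Genotypes overlapped for Lrrc32, Smad2 and Skil in both states; the 95% intervals were -0.46 to 0.77 and -0.86 to 0.28 for Lrrc32, -0.13 to 0.13 and -0.16 to 0.13 for Smad2, and -0.06 to 0.17 and -0.13 to 0.13 for Skil.

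The genes that led to the set stood as follows, given without a test. Eng averaged 42.8 ± 3.57 CPM (SD, n = 4) in control and 18.0 ± 6.15 CPM (n = 3) in deficient unstimulated cells, a fitted 2.39-fold difference. The highest deficient library, at 25.0 CPM, was below the lowest control library, at 37.7 CPM. After anti-IgM the means were 4.55 ± 1.03 and 2.17 ± 0.660 CPM (2.11-fold; n = 3 each), again without overlap. Tgfb1 averaged 764 ± 30.8 and 652 ± 62.2 CPM unstimulated (1.17-fold) and 791 ± 25.9 and 627 ± 57.4 CPM stimulated (1.26-fold).

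**Figure D3:**
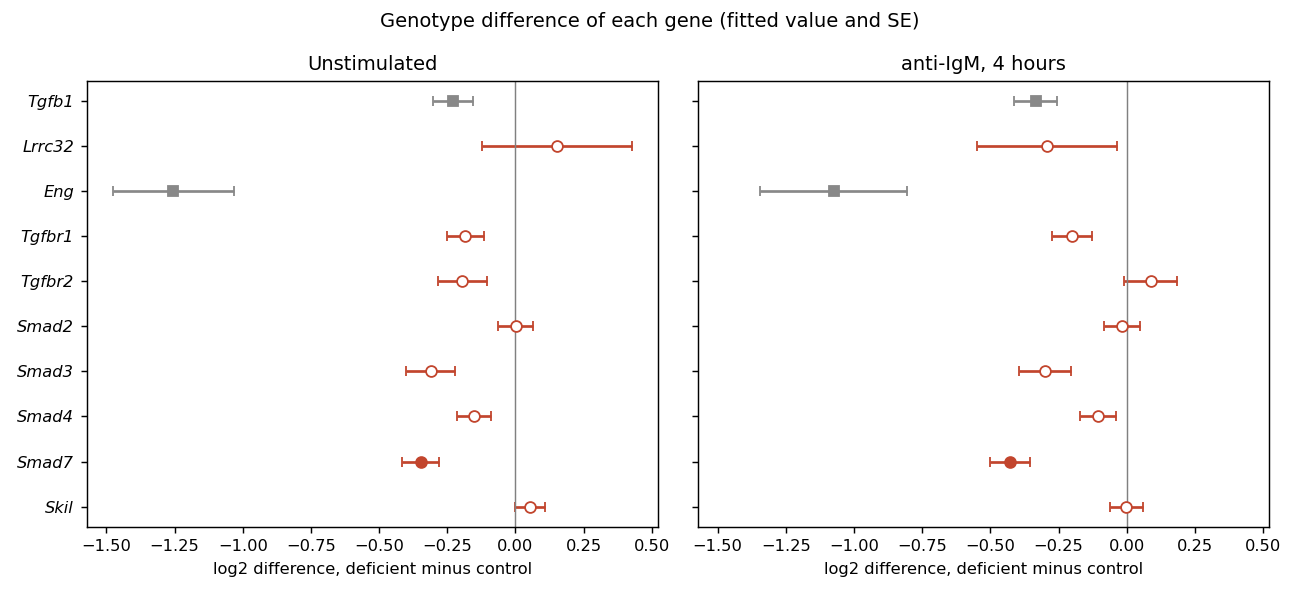
Fitted log2 difference between deficient and control cells (horizontal axis, deficient minus control; bars are 1 SE) of the 10 genes, unstimulated and after anti-IgM; filled circles passed an adjusted p under 0.05, and grey squares mark Eng and Tgfb1, whose differences chose the set and are shown without a test. Smad7 lies at -0.35 and -0.43, while Smad2 and Skil lie close to 0 in both states.

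Sex and genotype were unevenly combined, since most control animals read as female and most deficient animals as male. With sex as a term, 3 of the 8 genes other than Eng and Tgfb1 were called lower in unstimulated deficient cells: Smad7 (-0.39, adjusted p = 0.00301, edgeR), Tgfbr2 (-0.29, adjusted p = 0.0226) and Smad3 (-0.37, adjusted p = 0.0482). In stimulated cells 2 of the 8 were called lower, Smad7 (-0.46, adjusted p = 0.00042) and Smad3 (-0.34, adjusted p = 0.0395). The same term raised the count over all genes from 44 to 198 in unstimulated and from 273 to 511 in stimulated cells.

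Tgfb1 and Tgfbr2 varied together from library to library. Their log2 deviations from the group means had a Pearson r of 0.99 over 13 libraries, the highest of 13573 genes compared with Tgfb1, whose median r was 0.16. Only 1.08% of those genes passed an r of 0.9, and without deficient animal 1, which lay lowest for both, r was 0.97 over 11 libraries. All 6 male libraries were above their group mean for both genes and all 7 female libraries below it. Each control group held 1 male animal and each deficient group 1 female animal, and deviations within a group sum to about 0. The split therefore rests largely on control animal 1 and deficient animal 1. The deviations of Tgfb1 ran from 0.05 to 0.11 in male and from -0.16 to 0.00 in female libraries. Points of a pair share the library, its depth and its scaling, and each animal but 1 gave 2 of them. None of the other 8 genes split fully by sex, though some came near. For Smad2, 5 of the 6 male and 1 of the 7 female libraries were above the group mean. These counts were 5 and 2 for Smad3 and Smad7, and 5 and 3 for Smad4. For Lrrc32 and Tgfbr1 they were 4 and 3, for Skil 4 and 4, and for Eng 2 and 4. Marker sums moved with Tgfb1 and Tgfbr2 too. Deviations of red pulp macrophage and monocyte markers had r = -0.87 with Tgfb1 and -0.86 with Tgfbr2, those of plasma and B-1 cell markers -0.82 and -0.86, of neutrophil markers -0.76 and -0.74, of erythroid markers -0.69 and -0.70, and of B cell markers 0.77 and 0.80. The erythroid list (12 genes) summed to 567 to 1084 CPM in unstimulated control and 402 to 1806 CPM in unstimulated deficient libraries. After anti-IgM it summed to 1074 to 1352 and 884 to 2186 CPM, of which Tfrc made up 721 to 829 CPM. The globin genes of the list added almost nothing, since Hba-a1, Hba-a2 and Hbb-b2 had 0 reads in every library and Hbb-b1 at most 3. Deficient animal 1 had the highest erythroid sum in both states. The plasma and B-1 cell list (8 genes) summed to 436 to 567 CPM in unstimulated control and 299 to 633 CPM in unstimulated deficient libraries, and to 363 to 462.5 and 248 to 540 CPM after anti-IgM. Igj made up 114 to 404 CPM of that sum in unstimulated libraries. In the macrophage and monocyte list Lyz2 stood at 60.4 to 322 CPM and Spic at 2.58 to 4.33 CPM in unstimulated libraries. The part of sex or of these cell types in the shared variation was not tested.

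**Figure D4:**
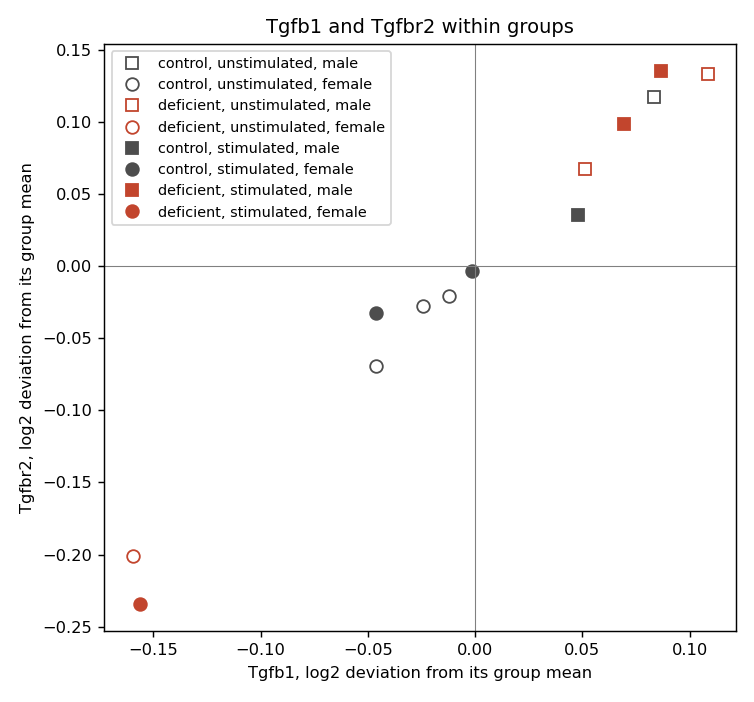
Log2 deviation from the group mean of Tgfb1 (horizontal axis) and Tgfbr2 (vertical axis) in each of the 13 libraries; squares read as male and circles as female, open symbols are unstimulated, filled stimulated, grey control and red deficient. The points follow a line with r = 0.99, males above 0 and females below it, and the 2 libraries of deficient animal 1 lie lowest.

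By Pearson r of log2 CPM over the 13 libraries, the gene most like Eng was Itgb3 (r = 0.99), followed by Smurf2 (0.99), a ubiquitin ligase gene of the same pathway. Itgb3 stood at 133 to 160 CPM in unstimulated control, 85.0 to 108 in unstimulated deficient, 26.5 to 39.3 in stimulated control and 16.2 to 23.1 CPM in stimulated deficient libraries. Its deviations from group means also followed those of Eng (r = 0.84, 0.83 without deficient animal 1), where Med13l (0.94), Runx1 (0.92) and Rnf24 (0.91) ranked highest. Lrrc32 was most like Dimt1 (r = 0.996) and Hspbp1 (0.995), and in deviations most like Il2ra (0.93), Eme2 (0.91) and Tnfaip3 (0.89). Smad3 was most like Nfkbib, an inhibitor of NF-kB, (0.9985), and Usp31 (0.998), and Smad7 most like Il17ra and Lats2 (both 0.99). Correlations over all libraries include the difference between states. For the other genes the closest were Ets2 (0.95) and Gna13 (0.95) for Tgfb1, Zswim6 (0.89) and Wdfy1 (0.88) for Tgfbr1, and Arid5b (0.87) and Tinf2 (0.85) for Tgfbr2. Smad2 was closest to Orc3 (0.97) and Gmeb1 (0.96), Smad4 to Pde4d (0.95) and Laptm5 (0.94), and Skil to the gene listed as March2 (0.98) and Scai (0.97).

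Of 86 further genes of the pathway, listed by role, 70 passed the filter, and the 16 others had at most 15 reads in a library; among them were the ligand genes Inhba, Nodal and Bmp4. Between genotypes edgeR called 0 of the 70 in unstimulated cells, while DESeq2 called 1, beside 163 over all genes, and limma 0. At an unadjusted p under 0.05 the count was 11 in unstimulated and 18 in stimulated cells. The share of all genes at that unadjusted threshold was not counted. In stimulated cells 3 of the 70 (4.29%) were called lower in deficient cells, beside the 1.26% of all genes, and 67 were not called. Their median difference was -0.11. Id3, a target gene that encodes an inhibitor of E proteins, averaged 17.7 CPM in control and 11.1 CPM in deficient cells (-0.67 ± 0.11, adjusted p = 0.00411, edgeR). Itgav, the integrin alpha-V chain that helps activate latent TGF-beta, averaged 366.5 and 256 CPM (-0.51 ± 0.12, adjusted p = 0.0468). Lrrc33, a carrier of latent TGF-beta related to GARP, averaged 477 and 379 CPM (-0.33 ± 0.08, adjusted p = 0.0494). The calls of Itgav and Lrrc33 each held in 2 of the 13 fits with a library left out, and that of Id3 in all 13. Those fits include the ones that left out an unstimulated library.

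After anti-IgM 18 of the 70 were called higher and 18 lower in control cells, beside 28.5% and 31.8% of all genes. In deficient cells 19 were higher and 20 lower, beside 28.3% and 29.6%, so both shares lay near the background. In control cells the higher genes with the smallest p were Bhlhe40 (2.26 ± 0.07), Strap (1.34 ± 0.06), Gadd45b (2.05 ± 0.10) and Lrrc33 (1.20 ± 0.08). The lower ones were Id3 (-2.33 ± 0.11), Runx1 (-0.94 ± 0.05), the coactivator gene Ep300 (-1.02 ± 0.07) and the SMAD corepressor gene Ski (-0.72 ± 0.05). In deficient cells Bhlhe40 (1.95), Strap (1.30), Gadd45b (2.04) and Fkbp1a (1.03) led the higher genes and Id3 (-2.77), Runx1 (-1.03), Ep300 (-0.98) and Nedd4l (-1.21) the lower ones. By role, to be read against the same shares of all genes, 3 of 12 receptor and coreceptor genes were called lower in control and 4 in deficient cells, and the rest were not called. Of 15 inhibitors and turnover genes, 5 were higher and 6 lower in control cells. Of 10 SMADs and SMAD partners, 2 were higher and 5 lower in each genotype. For the difference of responses edgeR, DESeq2 and limma each called 0 of the 70. Of the 70, 6 had an unadjusted p under 0.05, a threshold at which the share of all genes was not counted.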

How the data were processed

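RNA of 13 libraries of mouse splenic B cells was sequenced on an Illumina HiSeq2500, per the labels' protocols. Raw counts per gene were deposited by the authors; the submitters' processing notes name TopHat, HTSeq, DESeq2 and the mm10 build, and their versions, settings, strand and annotation are not given in the sources used here. The authors also deposited log2 values per gene, whose exact transformation is not given. All counts of the 13 libraries were fitted together in edgeR 4.0.16 (R 4.3.3; quasi-likelihood test, TMM scaling, genes with at least 10 counts by group, 4 group means, 9 residual degrees of freedom), with Benjamini-Hochberg adjustment over 13574 genes and a threshold of 0.05. DESeq2 1.42.0 and limma 3.58.1 (on the deposited log2 values) served as alternatives. The script was tested on simulated data with known changes.

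The members and lists were chosen with earlier results of these data known. Named were all 10 members, up to 4 further pathway genes called per comparison and direction with the smallest p, and per member the 2 genes most alike over libraries (3 by deviations for Eng and Lrrc32), from genes whose mean log2 CPM reached 2. Marker lists and 86 pathway genes were matched by symbol. Coordinates come from the GENCODE annotation of GRCm38.

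Libraries of 1 genotype with the same number deviated together across states (r of deviations 0.56 to 0.80 over 8656 genes), so the numbers pair the states within a genotype and a fit with the animal as a block is given where it changes a call. Replicates of a group differed beyond sampling noise. The labels do not describe the animals further, so p-values measure the spread between these libraries.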

Additional observations from a re-analysis of the deposited data

Results flagged for a closer look

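Among the 4 unstimulated control libraries, library 2 stood apart for a pair of genes. Its Smad3 level was 183.9 CPM, and the gap to the next library was 0.893 of the whole range, above the critical share of Dixon's test. Its Smad4 level of 103.3 CPM was the lowest, with a gap of 0.842 of the range. All 10 genes were examined in this group, and chance marks about 1 in 20.

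Tgfbr2 responded in opposite directions in the animals of the 2 genotypes. The share of all genes with such a split was not counted. The difference of its responses, deficient minus control, was 0.28 (adjusted p = 0.9997, edgeR; 0.30, adjusted p = 0.03, with the animal as a block). The responses of Tgfb1 were also of opposite sign, at 0.01, 0.07 and 0.02 in the control and -0.05, -0.04 and -0.08 in the deficient animals. Their difference was -0.11 and was not called (adjusted p = 0.9997; 0.796 with the animal as a block).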

How the results depend on the processing

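No fitted difference of the 10 genes called in a comparison changed sign under any alternative run. With Eng and Tgfb1 included, the count of the 10 called between genotypes in unstimulated cells, 2, became 1 with no filter or with only the groups compared, 0 with the replicate number as a block, 5 with sex as a term, and 0 to 2 with single libraries left out. In stimulated cells the count of 2 became 1 with only the groups compared or with the replicate number as a block, 3 with DESeq2's size factors, sex as a term, limma or without deficient animal 1, 4 with the DESeq2 Wald test, and 1 to 3 with single libraries left out. In the main fit these counts held a gene by which the set was chosen, Eng in unstimulated and Tgfb1 in stimulated cells, beside Smad7. The selection fixed those calls in advance, so nothing is read from the counts of the 10 between genotypes. Over the other 8 genes the count of 1 ranged from 0 to 3 in unstimulated and from 1 to 2 in stimulated cells. Across genotypes the numbers do not pair animals (r of deviations -0.56 to -0.06), so that block is only an arithmetic alternative. For the difference of responses the count of 0 became 1 with the animal as a block; the cause of these moves was not tested.

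Over all genes the calls ranged from 17 to 198 in unstimulated (44), 129 to 532 in stimulated (273) and 1 to 68 for the difference of responses (1). Of the 70 further pathway genes, 3 were called between genotypes in stimulated cells by edgeR, 6 by DESeq2 and 4 by limma. Over all genes edgeR called 273 and DESeq2 532 in that comparison. The stimulated Smad7 call and the responses of Lrrc32, Eng, Smad3, Smad7 and Skil held in every alternative; Smad2 and Smad4 responses lost their calls under several. Scaling moved the median of all genes by less than 0.1. Depth limited only Eng in stimulated cells, with 41 to 151 reads.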
